A study of Homo sapiens with 60 samples.

Results

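SW1783, an established human astrocytoma line, was given hot-water extracts of medicinal plants, and messenger RNA libraries were sequenced and counted per gene after 24 h. Described here are 2 of the treatments side by side: the extract of Coptidis Rhizoma, the rhizome of Coptis, at 20 µg/mL (3 libraries) and the extract of Scutellariae Radix, the root of Scutellaria, at 410 µg/mL (3 libraries). They are 6 of the 60 libraries of the series, taken by their labels of extract and dose. Each was the highest dose of its extract. The lower doses were 0.8 and 4 µg/mL for Coptis and 16.4 and 82 µg/mL for Scutellaria, and 3 libraries of cells given DMSO served as vehicle. By the design text, an extract with an IC20 (by its name, the concentration that inhibits by 20%) below 500 µg/mL was used at that IC20 and at dilutions of it; the sources used here do not say which response was inhibited. The doses are therefore not matched by mass. The line was kept in Leibovitz's L-15 medium with serum. The DMSO content of the vehicle is 0.1% in the sample labels and 2% in the design text, and the sources used here give none for the extract groups. The labels do not say whether the 3 libraries of a group came from separate cultures. The p-values measure the spread between libraries of a group, estimated over all 60 libraries, and that spread may be technical.

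As background, Coptis rhizome is known for protoberberine alkaloids such as berberine, for which inhibition of mitochondrial respiration has been described, and Scutellaria root for flavones such as baicalin and wogonin. Neither was measured here. The stress pathways compared below each act through a transcription factor that a defined kind of damage activates. In the integrated stress response, kinases that sense amino acid shortage, misfolded protein, haem shortage or mitochondrial damage slow translation while raising that of ATF4, which then switches on amino acid supply genes and DDIT3. Misfolded protein in the endoplasmic reticulum releases ATF6 for cleavage and makes IRE1 splice the message of XBP1, and both factors raise chaperones such as HSPA5. Electrophiles free NRF2 from KEAP1, unfolded cytosolic protein frees HSF1, low sterol frees SREBP2, and the ratio of free to filamentous actin governs the partners of SRF.

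The 2 extracts left very different transcriptomes. Of 17569 genes tested, 12844 (73.1%) differed between Coptis and Scutellaria libraries at an adjusted p under 0.05 in edgeR's quasi-likelihood test, 6243 higher and 6601 lower in Coptis (35.5% and 37.6% of the genes tested). At least 2-fold differences were found for 949 genes higher and 2403 lower in Coptis (5.4% and 13.7%). Against the same 3 vehicle libraries, 13207 genes were called for Coptis (75.2%; 6540 higher and 6667 lower, 37.2% and 37.9%) and 10336 for Scutellaria (58.8%; 5328 higher and 5008 lower, 30.3% and 28.5%). Called and at least 2-fold from vehicle were 4430 genes for Coptis and 1603 for Scutellaria (25.2% and 9.12%). With replicates this close, small differences pass the test, so fold sizes are given throughout. The coefficient of variation that edgeR names biological was 3.2% over all 20 groups. Each gene list is to be read beside the percentages above and the median over all genes, which was -0.04 (log2, Coptis over Scutellaria).

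Library totals were 25624302 to 27876033 counts with Coptis, 25391939 to 29318147 with Scutellaria and 20806694 to 25406879 in vehicle cells. The 20 most abundant genes held 12.8% to 13.2% of the counts with Coptis, 8.95% to 9.62% with Scutellaria and 9.49% to 9.71% in vehicle cells. The scaling factors that compensate for such a difference ranged from 0.80 to 1.04 over all libraries. They were 0.80 to 0.83 with Coptis, 1.02 to 1.03 with Scutellaria and 1.01 to 1.02 in vehicle cells. With library totals alone as the scale, the median over all genes moves by -0.33, and 3359 genes are called higher and 9963 lower in Coptis. A list with a median between 0 and 0.33 therefore changes sign on that scale, and where this happens it is said beside the list. The medians of Coptis over vehicle move by -0.32 in the same way, and those of the NRF2, cholesterol, glycolysis, collagen, mitochondrial ribosomal and both respiratory subunit lists are positive with the scaling factors and negative on library totals. Levels are given as CPM, counts per 1e6 of the scaled library total; they are not divided by transcript length, so they compare libraries and not genes. GFAP, the defining marker of astrocytes, was nearly absent from the line, with 5, 5 and 6 counts in all over the 3 Coptis, 3 Scutellaria and 3 vehicle libraries, AQP4 and FABP7 had 0 in these 9 libraries, while VIM and CD44 were abundant. Summed over 7 leukocyte markers, of which 3 were tested and 4, 3 and 2 had no count with Coptis, Scutellaria and vehicle, the level per 1e6 counts of the unscaled library total was 6.96 to 7.64 CPM with Coptis, 8.78 to 10.6 CPM with Scutellaria and 16.4 to 18.3 CPM in vehicle cells, most of it PTPRC; its part in the results was not tested.

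The sample codes place Coptis with Zizyphi Fructus (jujube) in set 4, Scutellaria with Pinelliae Tuber (Pinellia) in set 3 and vehicle apart from both. What a set stands for is not stated, and in the direct comparison the extract and the set cannot be told apart. Across the same sets, low-dose Coptis against low-dose Scutellaria gave 477 called genes (2.72%), 18 of them at least 2-fold (0.102%). Low-dose jujube against low-dose Pinellia gave 14 (0.0797%), 4 higher and 10 lower. Of the 30 NF-kB cytokines, chemokines and feedback genes described below, 6 were lower in that comparison and 0 higher. Comparing the change from low to high dose within Coptis with that within Scutellaria, which takes out any constant difference between sets, called 11273 genes (64.2%).

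**Figure D1:**
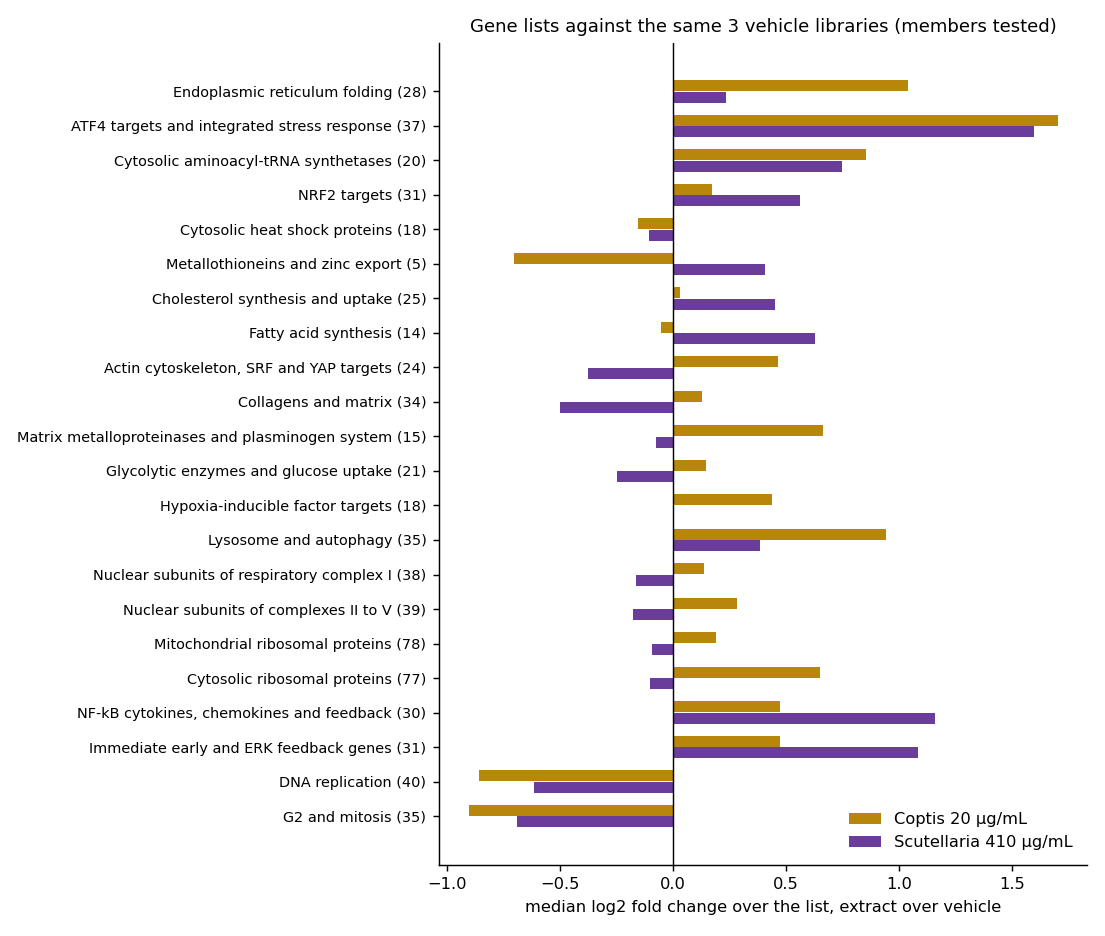
Median log2 fold change over vehicle of 22 gene lists for Coptis at 20 µg/mL (upper bar of each pair) and Scutellaria at 410 µg/mL (lower bar), with the number of members tested in brackets; both share the 3 vehicle libraries. The ATF4 list stands at 1.70 and 1.60, while endoplasmic reticulum folding stands at 1.04 for Coptis and 0.24 for Scutellaria and the actin list at 0.46 and -0.38.

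Genes of the integrated stress response were above vehicle under both extracts. Of 37 tested ATF4 targets (38 listed), 35 were higher and 1 lower than vehicle with Coptis, and 35 and 1 with Scutellaria, with medians of 1.70 and 1.60. ATF4 itself, the pathway's transcription factor, stood at 542, 549 and 529 CPM with Coptis, 473, 483 and 456 CPM with Scutellaria and 98.4, 103 and 103 CPM in vehicle cells. The extracts thus differed little in ATF4 (log2 fold change 0.20 ± 0.03, SE; adjusted p = 7.6e-08), and on library totals that difference is -0.14. Between the extracts, 23 members of the list were higher and 12 lower in Coptis (median 0.32, or -0.01 on library totals). Their differences ranged from -2.47, for the inhibin subunit gene INHBE (named after its values were seen), to 2.20, for DDIT3.

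Of the members higher in Coptis, GDF15, DDIT3, NUPR1 and TRIB3 had the smallest adjusted p. GDF15, a secreted hormone that acts on appetite, reached 687, 712 and 679.5 CPM with Coptis, against 187, 199.8 and 176 CPM with Scutellaria and 3.36, 4.18 and 4.09 CPM in vehicle cells (3.695-fold between the extracts, adjusted p = 3.5e-40). For DDIT3, which encodes the pro-apoptotic factor CHOP, the levels were 675, 664 and 651 CPM with Coptis, 150.3, 135 and 148 CPM with Scutellaria and 24.3, 25.9 and 24.2 CPM in vehicle cells (4.59-fold, adjusted p = 5.2e-40). In both genes every Coptis library lay above every Scutellaria library, and every Scutellaria library above vehicle. The stress regulator NUPR1 (log2 fold change 1.73 ± 0.05) and the pseudokinase TRIB3 (1.05 ± 0.03) differed in the same direction.

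Of the members lower in Coptis, SLC7A11, ALDH1L2, CHAC1 and PSAT1 had the smallest adjusted p. SLC7A11, the cystine carrier of the plasma membrane, stood at 208, 205 and 219 CPM with Coptis, 687, 682 and 721 CPM with Scutellaria and 142, 134 and 137 CPM in vehicle cells, 3.31-fold higher with Scutellaria than with Coptis (log2 fold change -1.72 ± 0.04, adjusted p = 8.8e-41). CHAC1, which degrades glutathione, had 21.9, 19.1 and 22.1 CPM with Coptis, 41.3, 43.6 and 41.1 CPM with Scutellaria and 4.06, 2.98 and 3.85 CPM in vehicle cells. Both genes were above vehicle under both extracts and highest under Scutellaria. The folate enzyme ALDH1L2 (-1.18 ± 0.06) and the serine synthesis enzyme PSAT1 (-0.41 ± 0.03) were also lower in Coptis.

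ASNS, asparagine synthetase, chosen after its values were seen because its promoter is shown, had 397, 387 and 412 CPM with Coptis, 307, 292 and 309 CPM with Scutellaria and 48.9, 49.6 and 49.1 CPM in vehicle cells (log2 fold change 0.40 ± 0.03). The promoters of ASNS and CHAC1 are shown because they share an element while the genes differed between the extracts in opposite directions. Each holds 1 match to TGATGNAA, the core of the C/EBP-ATF response element through which ATF4 acts, searched on both strands. Shown are the bases just before the RefSeq gene start (GRCh38.p14), 150 for ASNS (chr7:97872409-97872558, minus strand) and 250 for CHAC1 (chr15:40953221-40953470, plus strand), 5′ to 3′ on the gene's strand with the match in capitals:
ASNS: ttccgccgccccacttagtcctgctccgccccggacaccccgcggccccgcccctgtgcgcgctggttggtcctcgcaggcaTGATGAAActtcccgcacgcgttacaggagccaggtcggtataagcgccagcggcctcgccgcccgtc
CHAC1: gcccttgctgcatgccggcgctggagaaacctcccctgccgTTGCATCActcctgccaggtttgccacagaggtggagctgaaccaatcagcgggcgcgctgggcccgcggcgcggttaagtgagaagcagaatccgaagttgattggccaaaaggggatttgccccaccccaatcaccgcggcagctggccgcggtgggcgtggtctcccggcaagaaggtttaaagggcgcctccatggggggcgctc
Of 30 list members with a promoter in the RefSeq table, 6 held a match in the window from 250 bases before to 50 bases after the start, against 3.67% of all 27305 promoters.

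The enzymes that charge transfer RNAs, most of which ATF4 also regulates, were mostly above vehicle under both extracts. With Coptis 18 of 20 were higher and 2 lower (median 0.86, or 0.54 on library totals). With Scutellaria 12 were higher and 5 lower (median 0.75, or 0.77 on library totals). Between the extracts, 16 were higher and 3 lower in Coptis than in Scutellaria (median 0.38, or 0.05 on library totals). AARS1, the alanine enzyme, had 896, 933 and 939 CPM with Coptis, 396, 393 and 397 CPM with Scutellaria and 179.9, 178 and 175 CPM in vehicle cells (log2 fold change 1.22 ± 0.03). YARS1 (1.09 ± 0.02), GARS1 (0.97 ± 0.02) and SARS1 (0.83 ± 0.03) followed the same order. The 3 that were lower in Coptis, IARS1, MARS1 and HARS1, differed by at most 0.26 on the log2 scale.

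Of the kinases that start the response, EIF2AK3, the endoplasmic reticulum sensor PERK, was lower in Coptis, with 32.1, 32.3 and 32.3 CPM against 64.3, 60.02 and 62.03 CPM with Scutellaria and 28.5, 26.9 and 27.3 CPM in vehicle cells (log2 fold change -0.95 ± 0.04). EIF2AK1, the haem-regulated kinase that also relays mitochondrial damage, was higher in Coptis (0.46 ± 0.03). EIF2AK4, the amino acid sensor GCN2 (0.23 ± 0.03), and DELE1, the mitochondrial messenger to EIF2AK1 (0.22 ± 0.04), were higher by less, and both have the opposite sign on library totals (-0.10 and -0.11). For EIF2AK2, the sensor of double-stranded RNA, the difference was -0.15 ± 0.04.

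Chaperones and quality-control genes of the endoplasmic reticulum were higher in Coptis nearly throughout. Of 28 genes, 25 were higher and 1 lower in Coptis (median 0.60, against -0.04 over all genes), and 5 were at least 2-fold higher. Against vehicle, all 28 were higher with Coptis (median 1.04), and 17 were higher and 3 lower with Scutellaria (median 0.24). HSPA5, the chaperone BiP and the gene most often read as the gauge of this response, stood at 17864, 18499 and 17872 CPM with Coptis, against 4226, 4092 and 4240.4 CPM with Scutellaria and 3613, 3582 and 3613 CPM in vehicle cells. Coptis was 4.32-fold higher than Scutellaria (log2 fold change 2.11 ± 0.03, adjusted p = 9.8e-51), whereas Scutellaria differed from vehicle by 0.22 ± 0.03.

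The chaperone HSP90B1 had 3381, 3465 and 3307 CPM with Coptis, 1408, 1328 and 1396 CPM with Scutellaria and 1559, 1559 and 1526 CPM in vehicle cells, so that Scutellaria lay below vehicle (-0.17 ± 0.02) and Coptis above it (1.13 ± 0.02). SEL1L, an adaptor of the ubiquitin ligase that clears misfolded protein (1.26 ± 0.02), and SEC24D, a coat protein of the vesicles leaving the compartment (0.99 ± 0.03), were higher in Coptis too. The 1 member lower in Coptis was DERL1, a channel component of the same clearance route (-0.28 ± 0.03). XBP1, the transcription factor of the response (named after its values were seen), had 389.6, 391 and 373 CPM with Coptis, 259, 264 and 242 CPM with Scutellaria and 96.5, 99.9 and 98.3 CPM in vehicle cells. It was thus above vehicle under both extracts; splicing of its message cannot be read from gene counts.

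The HSPA5 promoter carries the element by which ATF6 acts, the endoplasmic reticulum stress element (CCAAT, any 9 bases, CCACG), 66 to 48 bases before the start. It is shown because HSPA5 had the smallest adjusted p of its list; the 150 bases before the start (chr9:125241344-125241493, minus strand, GRCh38.p14) read, with the element in capitals:
HSPA5: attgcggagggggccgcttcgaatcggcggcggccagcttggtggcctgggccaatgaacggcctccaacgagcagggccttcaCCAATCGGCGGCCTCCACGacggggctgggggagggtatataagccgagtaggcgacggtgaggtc
Both strands were searched, and 7 of the 24 list members with a RefSeq promoter held the element (HSPA5, HSP90B1, CALR, CANX, XBP1, CRELD2 and ERO1B), against 0.0806% of all promoters (22 of 27305).

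**Figure D2:**
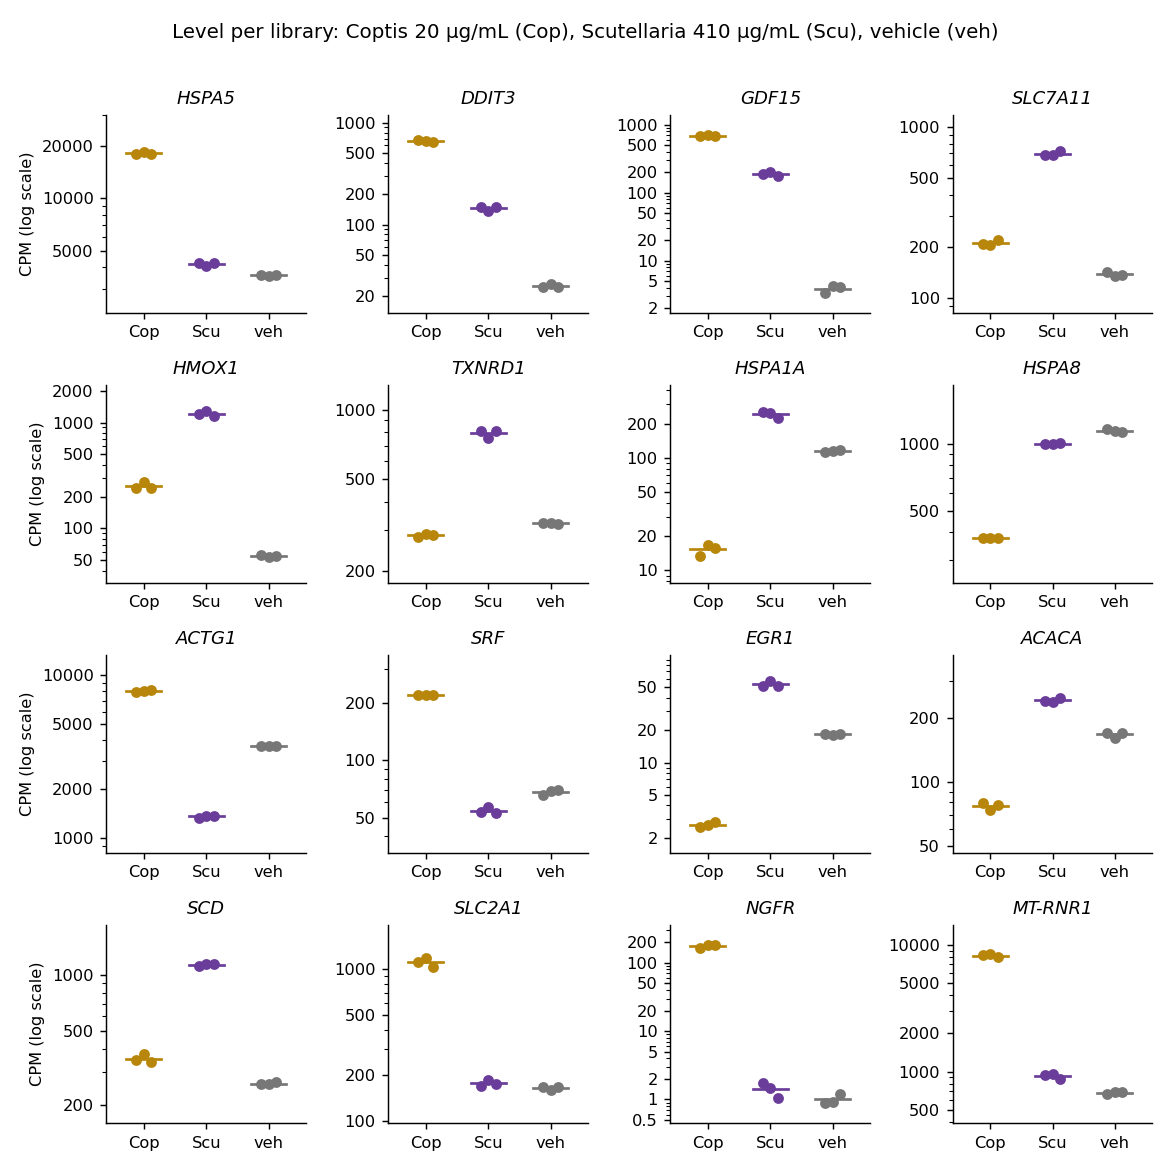
Scaled CPM (log axis) of 16 genes in each of 3 libraries given Coptis at 20 µg/mL, 3 given Scutellaria at 410 µg/mL and 3 vehicle libraries; points are libraries and lines are group means. In each panel the Coptis and Scutellaria points do not overlap: HSPA5, DDIT3, GDF15, ACTG1, SRF, SLC2A1, NGFR and MT-RNR1 are higher in Coptis, and SLC7A11, HMOX1, TXNRD1, HSPA1A, HSPA8, EGR1, ACACA and SCD are higher in Scutellaria.

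Antioxidant genes controlled by NRF2 went the other way. Of 31 tested, 6 were higher and 20 lower in Coptis (median -0.42), 9 of them at least 2-fold lower. Against vehicle the counts were 17 higher and 11 lower with Coptis (median 0.17) and 25 higher and 2 lower with Scutellaria (median 0.56). HMOX1, which breaks down haem, had 243, 277 and 238 CPM with Coptis, against 1196, 1288 and 1147 CPM with Scutellaria and 56.6, 54.1 and 55.2 CPM in vehicle cells. It was above vehicle under both extracts and 4.79-fold higher with Scutellaria than with Coptis (log2 fold change -2.26 ± 0.05, adjusted p = 7.7e-42).

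TXNRD1, thioredoxin reductase, differed from vehicle by little under Coptis, with 281, 288 and 287 CPM, against 811, 757 and 807 CPM with Scutellaria and 323, 323 and 318 CPM in vehicle cells (log2 fold change -0.17 ± 0.03 for Coptis over vehicle and -1.47 ± 0.03 for Coptis over Scutellaria). GCLM, a subunit of the enzyme that limits glutathione synthesis, had 62.7, 63.9 and 57.5 CPM with Coptis, 175, 173 and 179 CPM with Scutellaria and 97.3, 90.3 and 94.2 CPM in vehicle cells, below vehicle under Coptis and above it under Scutellaria. Members higher in Coptis included the small MAF partner MAFG (0.79 ± 0.03) and the pentose phosphate enzyme TKT (0.68 ± 0.03). The ferritin chains FTL and FTH1 were above vehicle under both extracts (log2 fold change 1.57 and 1.96 with Coptis, 1.36 and 1.71 with Scutellaria); their difference between extracts, 0.21 ± 0.04 and 0.24 ± 0.07, has the opposite sign on library totals. The message of NFE2L2, which encodes NRF2, was higher in Coptis (0.40 ± 0.03), and that of its inhibitor KEAP1 did not pass the test (-0.03 ± 0.04).

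Metal-responsive genes were lower in Coptis as well. Of 5 tested (9 listed), 4 were lower and 0 higher (median -1.10). MT1E, a metal-binding metallothionein, had 7.56, 8.11 and 6.89 CPM with Coptis, 19.8, 22.7 and 18.98 CPM with Scutellaria and 12.7, 15.4 and 15.5 CPM in vehicle cells. SLC30A1, the zinc exporter, stood at 62.2, 63.3 and 62.3, 128, 129 and 133 and 103, 101 and 102 CPM in the same order of groups. For both genes Coptis lay below vehicle and Scutellaria above it. Metallothionein genes are near-identical copies, so reads can be split among them.

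Cytosolic heat shock genes split. Of 18, 7 were higher and 9 lower in Coptis (median -0.10, or -0.05 without Coptis replicate 3), with 3 at least 2-fold higher and 5 at least 2-fold lower. Over all genes 35.5% were higher and 37.6% lower, and 5.4% and 13.7% by at least 2-fold. The inducible chaperone HSPA1A had 13.5, 16.7 and 15.9 CPM with Coptis, against 254, 251 and 226 CPM with Scutellaria and 112, 114 and 117 CPM in vehicle cells, and its near-identical copy HSPA1B 19.4, 18.1 and 16.9, 261, 276 and 245 and 111, 97.1 and 98.5 CPM in the same order. Reads of the 2 copies cannot be told apart with certainty; in each, Coptis was below vehicle and Scutellaria above it (log2 fold change between the extracts -3.99 ± 0.07 and -3.84 ± 0.08). HSPA8, the constitutive member of the family, stood at 374, 377 and 375 CPM with Coptis, 1002, 1002 and 1007 CPM with Scutellaria and 1167, 1151 and 1129 CPM in vehicle cells, and the co-chaperone DNAJA1 at 75.8, 78.1 and 75.05, 209, 187 and 200.3 and 258, 255 and 259.6 CPM. Higher in Coptis were the HSP90 co-chaperone FKBP4 (1.25 ± 0.03), HSPA4L (1.45 ± 0.05), HSP90AB1 (0.50 ± 0.03) and the small heat shock protein CRYAB (2.54 ± 0.20, at 4.12 CPM on average). HSF1, the factor that drives these genes, had a higher message in Coptis (0.84 ± 0.04).

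HSPA8 is shown because it had the highest level of the 5 members at least 2-fold lower in Coptis and its promoter holds 2 heat shock elements (GAA, TTC and GAA with any 2 bases between each, both strands searched); 3 of 16 list promoters and 0.487% of all held at least 1. Its 250 bases before the start (chr11:123062137-123062386, minus strand, GRCh38.p14) read, with both elements in capitals:
HSPA8: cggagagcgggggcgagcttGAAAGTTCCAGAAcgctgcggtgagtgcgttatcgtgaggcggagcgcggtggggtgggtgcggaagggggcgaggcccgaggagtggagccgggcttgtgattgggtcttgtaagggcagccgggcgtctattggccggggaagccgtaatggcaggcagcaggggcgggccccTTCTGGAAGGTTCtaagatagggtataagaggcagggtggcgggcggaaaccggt

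Sterol and fatty acid synthesis were lower in Coptis nearly throughout. Of 25 genes of cholesterol synthesis and uptake, 1 was higher and 21 lower (median -0.52). Against vehicle, 9 were higher and 11 lower with Coptis (median 0.03), and 21 and 1 with Scutellaria (median 0.45). STARD4, which carries cholesterol between membranes, had 37.5, 33.8 and 32.7 CPM with Coptis, against 79.8, 77.6 and 81.3 CPM with Scutellaria and 50.4, 50.997 and 50.8 CPM in vehicle cells. The 3 groups did not overlap: Coptis lay below vehicle (log2 fold change -0.55 ± 0.05) and Scutellaria above it (0.65 ± 0.05), and the difference between the extracts was -1.20 ± 0.05 (adjusted p = 4.7e-28).

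The 1 gene of the list higher in Coptis was NSDHL, an enzyme of cholesterol synthesis (0.15 ± 0.04), which changes sign on library totals. SREBF2, the message of the sterol-sensing factor (named after its values were seen), had 92.3, 97.7 and 91.5 CPM with Coptis, 150.2, 161 and 153 CPM with Scutellaria and 85.5, 91.7 and 86.1 CPM in vehicle cells.

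Among 14 genes of fatty acid synthesis, 13 were lower in Coptis and 1 higher (median -0.77). SCD, the desaturase that makes oleic acid, stood at 347, 374 and 342 CPM with Coptis, 1112, 1145 and 1145 CPM with Scutellaria and 259, 259 and 265 CPM in vehicle cells, above vehicle under both and highest under Scutellaria. ACACA, acetyl-CoA carboxylase, had 79.2, 73.6 and 77.4 CPM with Coptis, 242, 238 and 249 CPM with Scutellaria and 171, 162 and 171 CPM in vehicle cells, and the elongase ELOVL6 11.3, 10.8 and 10.8, 61.4, 57.2 and 61.2 and 48.4, 47.01 and 44.5 CPM. For these, Coptis lay below vehicle and Scutellaria above. The 1 gene higher in Coptis was ACLY (0.19 ± 0.03), with the opposite sign on library totals. ABCA1, the exporter of cholesterol that liver X receptors induce, was above vehicle under both, by 2.17 ± 0.04 with Coptis and 3.02 ± 0.04 with Scutellaria.

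Genes of the actin cytoskeleton and targets of SRF and YAP were mostly higher in Coptis, and the medians of the extracts lay on opposite sides of vehicle. Of 24 genes, 20 were higher and 2 lower in Coptis (median 1.00), with 12 at least 2-fold higher. Against vehicle, 19 were higher and 4 lower with Coptis (median 0.46), and 4 higher and 18 lower with Scutellaria (median -0.38). On library totals 12 were higher and 6 lower than vehicle with Coptis (median 0.15). ACTG1, cytoplasmic gamma-actin, had 7876, 8018 and 8125 CPM with Coptis, against 1337, 1379 and 1374 CPM with Scutellaria and 3691, 3697 and 3693 CPM in vehicle cells (5.87-fold between the extracts, adjusted p = 6.1e-55). The beta-actin gene ACTB, named after its values were seen, stood at 7629, 7948 and 7298 CPM with Coptis, 3615, 3982 and 3617 CPM with Scutellaria and 7391, 7429 and 7166 CPM in vehicle cells, below vehicle under Scutellaria and not called different from it under Coptis (0.06 ± 0.03). ACTA2, the smooth muscle actin, had 103, 104 and 109, 31.3, 33.1 and 33.4 and 86.3, 86.9 and 84.6 CPM in the same order.

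SRF, the transcription factor of these genes and itself one of its own targets, had 220.2, 219.8 and 219.7 CPM with Coptis, 53.3, 56.98 and 52.7 CPM with Scutellaria and 65.98, 69.2 and 69.6 CPM in vehicle cells (log2 fold change 2.02 ± 0.04). The calponin gene CNN2 differed by 1.71 ± 0.03. The 2 members lower in Coptis were LATS2, a kinase that restrains YAP (-0.53 ± 0.05), and AJUBA (-0.13 ± 0.04). Of the YAP and SRF target CCN1, named after its values were seen, there were 1037, 979 and 1087 CPM with Coptis, 393, 405 and 387 CPM with Scutellaria and 198, 189 and 214 CPM in vehicle cells, whereas the related CCN2 had 135, 118 and 139.96, 149.6, 142 and 143 and 95.3, 92.7 and 98.5 CPM.

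EGR1, an immediate early factor that SRF also drives but through ERK-activated partners, went the opposite way: it had 2.55, 2.64 and 2.799 CPM with Coptis, against 51.1, 56.8 and 51.7 CPM with Scutellaria and 18.3, 18.1 and 18.5 CPM in vehicle cells (log2 fold change -4.32 ± 0.12, adjusted p = 2.4e-36). The promoters of ACTG1, SRF and EGR1 are set together because all 3 hold the CArG box that SRF binds, while their levels part. The 150 bases before each start are shown (chr17:81512800-81512949, minus strand; chr6:43171119-43171268, plus strand; chr5:138465329-138465478, plus strand; GRCh38.p14), with each CArG box in capitals:
ACTG1: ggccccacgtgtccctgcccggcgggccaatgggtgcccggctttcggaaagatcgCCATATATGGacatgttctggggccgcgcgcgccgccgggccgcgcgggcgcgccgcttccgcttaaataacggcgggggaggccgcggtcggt
SRF: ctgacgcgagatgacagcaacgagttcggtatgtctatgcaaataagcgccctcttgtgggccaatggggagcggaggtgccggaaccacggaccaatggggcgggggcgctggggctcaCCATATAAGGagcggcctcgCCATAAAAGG
EGR1: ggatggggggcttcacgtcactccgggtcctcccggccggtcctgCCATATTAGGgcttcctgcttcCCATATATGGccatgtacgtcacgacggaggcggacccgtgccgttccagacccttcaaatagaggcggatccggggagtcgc
ACTG1 holds 1 box, 94 to 85 bases before the start, SRF 2 within 30 bases of it and EGR1 2 between 105 and 74 bases before it. Of 19 promoters of the actin list, 4 held a box (ACTG1, CNN2, FLNA and SRF), and of 22 promoters of the immediate early list 1 did (EGR1), against 1.29% of all promoters; the box reads alike on both strands and is counted once.

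Matrix genes were higher in Coptis than in Scutellaria. Of 34 collagens and matrix proteins, 30 were higher and 1 lower in Coptis (median 0.71). Against vehicle, 19 were higher and 12 lower with Coptis (median 0.13), and 1 higher and 32 lower with Scutellaria (median -0.50). On library totals 9 were higher and 22 lower than vehicle with Coptis (median -0.19). Over all genes on that scale 4032 were higher and 9535 lower (median -0.35). COL4A1, a basement membrane collagen, had 362, 383 and 384 CPM with Coptis, 154, 168 and 156 CPM with Scutellaria and 319, 322 and 318 CPM in vehicle cells, and POSTN, periostin, 237, 239 and 243, 105, 103 and 106 and 151, 146 and 139.9 CPM. COL1A1, the main fibrillar collagen (named after its values were seen), stood at 664, 676 and 691 CPM with Coptis, 664, 734 and 706 CPM with Scutellaria and 3219.6, 3350.5 and 3204 CPM in vehicle cells, and its difference between the extracts did not pass the test (-0.05 ± 0.03, adjusted p = 0.17). LOXL1, which cross-links elastin, was the 1 member lower in Coptis (-0.53 ± 0.06). Of 15 metalloproteinase and plasminogen genes, 13 were higher and 0 lower in Coptis (median 0.58), among them TIMP3, an inhibitor bound to matrix, with 126, 128 and 124 CPM with Coptis, 28.9, 29.6 and 27.3 CPM with Scutellaria and 52.03, 46.1 and 46.9 CPM in vehicle cells.

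Glucose uptake and glycolysis genes were higher in Coptis. Of 21, 18 were higher and 0 lower (median 0.38, or 0.04 on library totals, where 8 are called higher and 5 lower). Against vehicle, 11 were higher and 7 lower with Coptis (median 0.14), and 4 higher and 12 lower with Scutellaria (median -0.25). SLC2A1, the glucose carrier GLUT1, had 1114, 1174 and 1039 CPM with Coptis, against 170.5, 187 and 175 CPM with Scutellaria and 169, 161 and 167 CPM in vehicle cells, 6.25-fold higher in Coptis while Scutellaria differed from vehicle by 0.10 ± 0.04. HK2, the inducible hexokinase, stood at 216, 228 and 208 CPM with Coptis, 61.9, 61.98 and 66.1 CPM with Scutellaria and 51.99, 54.4 and 51.2 CPM in vehicle cells. PFKP, a phosphofructokinase, averaged 433 CPM with Coptis, 188 CPM with Scutellaria and 188 CPM in vehicle cells. TXNIP, which restrains glucose uptake and is itself raised by glucose, was lower in Coptis, with 2.95, 2.93 and 2.58 CPM, against 14.3, 14.7 and 14.1 CPM with Scutellaria and 9.65, 9.22 and 9.98 CPM in vehicle cells. It was already lower in Coptis at low dose (log2 fold change -0.80 ± 0.09), and the difference of the changes from low to high dose was -1.55 ± 0.14.

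Of 18 targets of hypoxia-inducible factor, 14 were higher and 3 lower in Coptis (median 0.59). NDRG1, a stress gene of hypoxic cells, had 316, 318 and 329 CPM with Coptis, 96.1, 102 and 100.2 CPM with Scutellaria and 33.2, 35.3 and 33.8 CPM in vehicle cells. ADM, adrenomedullin, had 89.8, 95.1 and 71.4, 25.3, 26.7 and 22.6 and 9.74, 11.4 and 9.27 CPM. The message of HIF1A stood at 1915, 1941 and 1866 CPM with Coptis, 944, 929 and 949.7 CPM with Scutellaria and 1180.2, 1139.9 and 1164 CPM in vehicle cells. The list was not uniform: ANGPTL4, a lipase inhibitor, was lower in Coptis (-2.43 ± 0.07), as were the oxygen sensor EGLN1 (-1.07 ± 0.05) and INSIG2 (-0.37 ± 0.07).

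Genes that FOXO factors induce when insulin signalling falls gave both signs, with 8 higher and 5 lower of 17 (median 0.13, -0.19 on library totals). Of all genes, 35.5% were higher and 37.6% lower. The median was 0.03 without Coptis replicate 1, 0.05 without Scutellaria replicate 2 and 0.20 without Coptis replicate 3. IRS2, an adaptor of the insulin receptor, had 462, 459 and 412 CPM with Coptis, 93.9, 105 and 91.1 CPM with Scutellaria and 18.2, 21.8 and 23.7 CPM in vehicle cells, above vehicle under both extracts and 4.59-fold higher in Coptis. CCNG2, an atypical cyclin linked to arrest, stood at 209, 215 and 191 CPM with Coptis, 28.1, 31.2 and 31.5 CPM with Scutellaria and 20.1, 20.5 and 20.3 CPM in vehicle cells. CITED2 was lower in Coptis (-0.85 ± 0.04).

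Lysosome and autophagy genes were above vehicle under both extracts, 32 of 35 with Coptis (median 0.94) and 28 with Scutellaria (median 0.38), and 30 were higher in Coptis than in Scutellaria (median 0.57). The cholesterol exporter of the lysosome, NPC1, had 587, 613 and 618 CPM with Coptis, 372, 371 and 368 CPM with Scutellaria and 206, 205 and 199.7 CPM in vehicle cells. The protease CTSB (0.77 ± 0.03) and the membrane protein LAMP1 (0.72 ± 0.03) were higher in Coptis, where Scutellaria lay within 0.08 of vehicle on the log2 scale for each. SQSTM1, the autophagy receptor p62 and also an NRF2 target, ran against the list, with 1491, 1556 and 1512 CPM with Coptis, 1935, 2042 and 1962 CPM with Scutellaria and 459.9, 483 and 513 CPM in vehicle cells.

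Mitochondrial ribosomal RNA was higher in Coptis at high dose and at low dose. MT-RNR1, the small ribosomal RNA of the mitochondrion, had 8309.7, 8408 and 7989 CPM with Coptis, against 946, 952 and 875 CPM with Scutellaria and 672, 686 and 694 CPM in vehicle cells. MT-RNR2, the large one (named after its values were seen), had 30965, 31149.7 and 28771, 11247, 10864 and 10485 and 8715, 8341 and 9148 CPM in the same order. At low dose MT-RNR1 already stood at 2875 CPM on average with Coptis, against 682 CPM with Scutellaria (adjusted p = 6.7e-38 in edgeR's test), so the difference in change from low to high dose (1.08 ± 0.07) is smaller than the difference at high dose (3.16 ± 0.05). At the medium dose of Coptis it averaged 19156 CPM, above the high dose. The labels describe messenger RNA libraries; how far ribosomal RNA is represented in them depends on the library step, and its part in the result was not tested.

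The messages made from mitochondrial DNA did not follow: of 13, 1 was higher and 5 lower in Coptis, against 35.5% and 37.6% of all genes. Their median was -0.17, or -0.27 without Coptis replicate 1 and -0.11 without Coptis replicate 3. At low dose 2 were higher and 7 lower in Coptis (median -0.31), against 333 and 144 of all 17569 genes. The difference of the changes from low to high dose was positive for 4 and negative for 2 (median 0.06, or -0.26 on library totals). Over all genes that difference was called positive for 5476 and negative for 5797. MT-ND4, a complex I subunit, had 5137, 4464 and 3585 CPM with Coptis, 6934, 6809.6 and 5810.1 CPM with Scutellaria and 5463, 5189 and 5860.1 CPM in vehicle cells, a wide spread within Coptis. MT-CO3 was the 1 higher in Coptis (0.21 ± 0.06, -0.13 on library totals). Nuclear-encoded subunits of complex I were higher in Coptis in 31 of 38 cases and lower in 2 (median 0.33, -0.00 on library totals, where 11 are called higher and 10 lower), and those of complexes II to V in 34 of 39 with 0 lower (median 0.45, 0.12 on library totals). The shifts were small and on both sides of vehicle, with medians for complex I of 0.13 with Coptis and -0.16 with Scutellaria. ATP5F1B, the catalytic subunit of ATP synthase, had 671, 693 and 664 CPM with Coptis, 447, 430.3 and 448 CPM with Scutellaria and 493, 510.3 and 501 CPM in vehicle cells. PPARGC1A, a coactivator of mitochondrial biogenesis, was higher in Coptis at a low level (7.74, 7.43 and 6.58 CPM, against 1.95, 1.73 and 1.82 CPM with Scutellaria and 2.66, 2.36 and 2.9 CPM in vehicle cells), and TFAM, which packages mitochondrial DNA, was lower (-0.33 ± 0.04).

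Cytosolic ribosomal proteins moved almost as a block: 76 of 77 were higher and 0 lower in Coptis than in Scutellaria (median 0.74), and on library totals 76 were higher still (median 0.41). Against vehicle 76 were higher with Coptis (median 0.65), and 2 higher and 27 lower with Scutellaria (median -0.10). RPL3 had 1107, 1174 and 1186 CPM with Coptis, 664, 622 and 645 CPM with Scutellaria and 563, 544 and 555 CPM in vehicle cells. Host transcripts of small nucleolar RNAs, many of which share the 5′ sequence type of ribosomal protein messages, were higher in Coptis for 12 of 14 and lower for 2 (median 0.62). GAS5, one of them, stood at 222, 202 and 207 CPM with Coptis, 117, 99.6 and 110.3 CPM with Scutellaria and 59.9, 59.1 and 67.7 CPM in vehicle cells. Mitochondrial ribosomal proteins had 55 of 78 higher and 9 lower (median 0.27, -0.06 on library totals), and ribosome biogenesis factors 23 of 32 higher and 4 lower (median 0.29, -0.04 on library totals). NPM1, a nucleolar chaperone, differed by 0.90 ± 0.03, and POLR1A, the largest subunit of RNA polymerase I, by -0.80 ± 0.04.

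Inflammatory genes were mostly lower in Coptis than in Scutellaria. Of 30 NF-kB cytokines, chemokines and feedback genes (33 listed), 7 were higher and 20 lower in Coptis (median -0.81), 11 of them at least 2-fold lower; against vehicle 17 were higher and 7 lower with Coptis (median 0.47; 13 and 10 on library totals), and 25 higher and 3 lower with Scutellaria (median 1.16). CXCL8, the neutrophil attractant, had 31.3, 27.4 and 22.8 CPM with Coptis, 64.8, 64.3 and 65.9 CPM with Scutellaria and 4.62, 5.54 and 5.85 CPM in vehicle cells. LIF, a cytokine of the interleukin-6 family, stood at 38.1, 34.5 and 35.5 CPM with Coptis, 173, 187 and 178 CPM with Scutellaria and 26.2, 23.5 and 28.8 CPM in vehicle cells. SOD2, the mitochondrial superoxide dismutase, had 93.5, 94.1 and 86.6, 259, 258 and 281 and 124, 122 and 119 CPM, below vehicle under Coptis and above it under Scutellaria. Across the same sets, low-dose jujube against low-dose Pinellia called 6 of the 30 lower and 0 higher. CXCL8 (-0.74 ± 0.12) and SOD2 (-0.37 ± 0.03) were lower there. At low dose, 5 were higher and 1 lower in Coptis than in Scutellaria, against 333 and 144 of all genes. The difference of the changes from low to high dose was positive for 4 and negative for 22 (median -1.09). Over all genes the counts were 5476 and 5797. The part of the set in this list was not tested. IL6 went against the list, with 45.9, 42.7 and 46.5 CPM with Coptis, 14.7, 15.04 and 16.1 CPM with Scutellaria and 3.497, 4.22 and 4.23 CPM in vehicle cells (1.56 ± 0.08), and IL1A likewise at a lower level (0.85 ± 0.16). Interferon-stimulated genes gave both signs, with 9 higher and 11 lower of 25, against 35.5% and 37.6% of all genes. They were more often below vehicle than above it, 14 against 8 with Coptis and 12 against 4 with Scutellaria. Over all genes those shares were 37.9% against 37.2% and 28.5% against 30.3%. IRF7, a factor of the interferon response, was higher in Coptis (0.96 ± 0.10) and DTX3L lower (-1.36 ± 0.06).

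Beside EGR1, the immediate early and ERK feedback genes were mostly lower in Coptis, 20 of 31 against 4 higher (median -0.49); against vehicle 18 were higher and 11 lower with Coptis (median 0.47), and 24 higher and 3 lower with Scutellaria (median 1.09). JUN had 89.2, 89.4 and 89.2 CPM with Coptis, 319, 335 and 301 CPM with Scutellaria and 96.6, 99.3 and 106 CPM in vehicle cells, and FOSL1 154, 159.97 and 152, 364, 399.7 and 327 and 148, 148 and 163 CPM. Under Scutellaria both stood above vehicle (1.66 ± 0.04 and 1.25 ± 0.05); under Coptis JUN lay slightly below it (-0.17 ± 0.05) and FOSL1 did not pass the test (0.03 ± 0.06). FOS, named after its values were seen, was low in all groups (0.176, 0.489 and 0.267 CPM with Coptis, 2.86, 2.58 and 1.92 CPM with Scutellaria and 1.96, 1.55 and 1.38 CPM in vehicle cells). KLF4, a growth-arrest factor, was above vehicle under both and higher in Coptis, with 47.2, 49.2 and 46.2 CPM, against 31.9, 30.3 and 28.8 CPM with Scutellaria and 5.22, 6.39 and 5.51 CPM in vehicle cells. ATF3, an early stress factor that ATF4 also induces (named after its values were seen), had 69.8, 67.9 and 64.8 CPM with Coptis, 32.2, 31.6 and 33.3 CPM with Scutellaria and 1.68, 2.28 and 1.62 CPM in vehicle cells.

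Proliferation genes fell under both extracts. Of 40 DNA replication genes, 34 were lower than vehicle with Coptis (median -0.86) and 38 with Scutellaria (median -0.62); of 35 genes of G2 and mitosis, 32 and 33 (medians -0.91 and -0.69). Between the extracts the members parted, 12 higher and 21 lower in Coptis among replication genes (median -0.17) and 11 higher and 20 lower among mitotic genes (median -0.22). The shares over all genes were 35.5% higher and 37.6% lower. KIF20A, a motor of late mitosis, had 11.3, 14.1 and 10.8 CPM with Coptis, 33.8, 34.4 and 34.3 CPM with Scutellaria and 100.2, 104 and 102 CPM in vehicle cells, and the S-phase factor UHRF1 12.003, 10.9 and 10.5, 32.1, 29.1 and 27.5 and 80.6, 80.7 and 78.3 CPM. For these, both extracts lay below vehicle, Coptis lowest. CDC20, which activates the anaphase ligase, stood at 203, 221 and 194 CPM with Coptis, 116, 111 and 111 CPM with Scutellaria and 203, 196 and 200.1 CPM in vehicle cells, so that Coptis overlapped vehicle and Scutellaria lay below. PLK1 (0.70 ± 0.05) and E2F1 (0.83 ± 0.04) were likewise higher in Coptis.

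In the BCL2 family, the pro-apoptotic BCL2L11 had 22.4, 23.5 and 21.99 CPM with Coptis, 7.94, 8.77 and 8.38 CPM with Scutellaria and 8.77, 8.91 and 9.22 CPM in vehicle cells, while PMAIP1, also pro-apoptotic, had 123, 126 and 114, 134, 133 and 142 and 48.6, 45.7 and 45.8 CPM and was above vehicle under both.

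Targets of the aryl hydrocarbon receptor differed already at low dose. At high dose, 6 of 10 were higher and 2 lower in Coptis (median 0.60), and CYP1B1, a monooxygenase, was below vehicle under both extracts: 97.4, 101 and 105 CPM with Coptis, 50.3, 57.7 and 59.02 CPM with Scutellaria and 168, 168 and 166 CPM in vehicle cells. At low dose CYP1B1 averaged 176 CPM with Coptis and 68.8 CPM with Scutellaria, and 8 of the 10 genes were already higher in Coptis there (median 0.85), against 1.9% of all genes. The difference of the changes from low to high dose ran the other way, with 0 higher and 8 lower (median -0.62). Of all 17569 genes, 5476 were higher and 5797 lower in that comparison. The receptor gene AHR did not pass the test between the extracts (-0.06 ± 0.04).

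**Figure D3:**
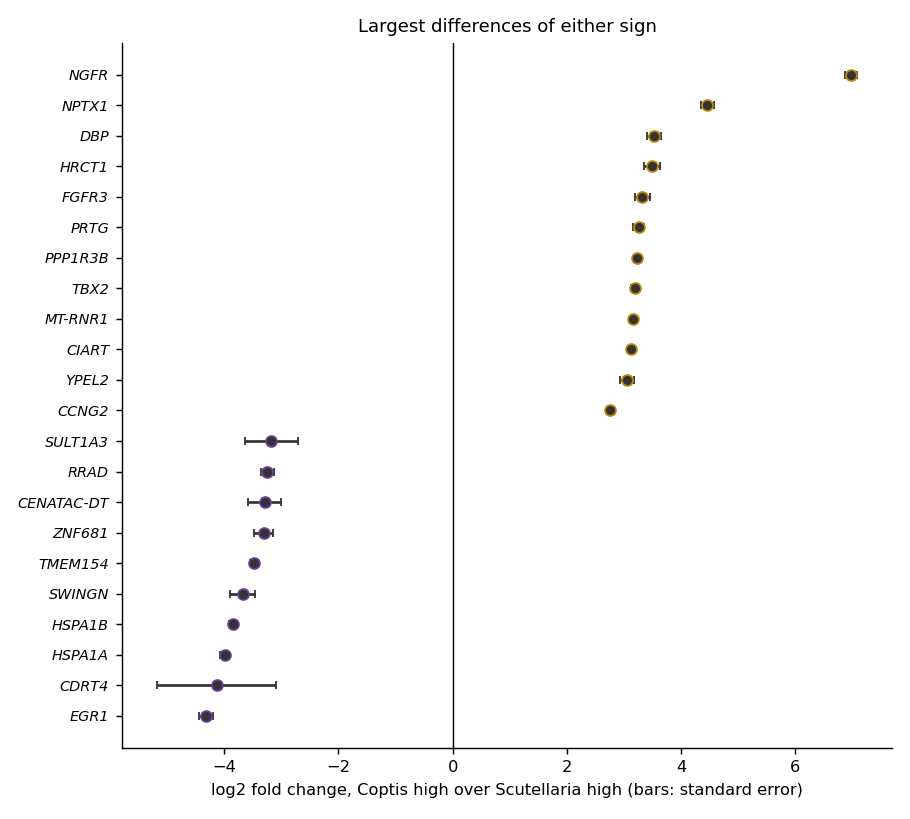
Log2 fold change, Coptis high over Scutellaria high, of the 12 largest rises and 10 of the 12 largest falls among called genes with non-overlapping libraries; points are fitted values and bars standard errors. PAPPA-AS1, with no count in Coptis, has no finite fold and is left out, as is 1 gene not reported here; NGFR stands at 6.98 and EGR1 at -4.32.

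The largest single difference was in NGFR, the low-affinity nerve growth factor receptor. It had 166, 182 and 181 CPM with Coptis, against 1.72, 1.46 and 1.06 CPM with Scutellaria and 0.886, 0.929 and 1.19 CPM in vehicle cells (log2 fold change 6.98 ± 0.11, adjusted p = 6.3e-47), and was close to silent with Scutellaria and in vehicle cells. NPTX1, a secreted pentraxin of synapses, had 38.6, 40.8 and 41.9 CPM with Coptis, 1.45, 2.501 and 1.59 CPM with Scutellaria and 2.38, 3.64 and 2.995 CPM in vehicle cells, and it was also higher in Coptis at low dose. The T-box factor TBX2 stood at 86.9, 90.5 and 84.5 CPM with Coptis, 8.97, 10.4 and 9.17 CPM with Scutellaria and 6.81, 7.71 and 7.99 CPM in vehicle cells. PPP1R3B, which directs a phosphatase to glycogen, had 295, 31.3 and 16.5 CPM on average in the same order. Of the circadian genes, the repressor CIART averaged 87.9 CPM with Coptis, 10.04 CPM with Scutellaria and 9.75 CPM in vehicle cells, and the output factor DBP 17.6, 1.52 and 2.61 CPM. The 12 largest also held HRCT1 (3.49 ± 0.14), the growth factor receptor FGFR3 (3.32 ± 0.13), PRTG (3.26 ± 0.10), YPEL2 (3.06 ± 0.12) and, described above, CCNG2 and MT-RNR1.

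Among the 12 largest differences in the other direction, beside EGR1 and the HSPA1 copies, TMEM154 had 4.44, 5.28 and 5.55 CPM with Coptis, 53.5, 57.02 and 59.3 CPM with Scutellaria and 16.1, 16.1 and 15.6 CPM in vehicle cells, and RRAD, a small GTPase that restrains calcium channels, 3.03, 3.32 and 3.55, 32.7, 30.97 and 30.1 and 15.4, 18.9 and 15.9 CPM. In both, Coptis lay below vehicle and Scutellaria above. PAPPA-AS1, an antisense transcript, had 0 counts in the 3 Coptis libraries and 4.503, 0.846 and 4.902 CPM with Scutellaria, a wide spread. The Scutellaria mean of 3.42 CPM was 23.3-fold above the floor of 3 counts per library (0.147 CPM). The lowest Scutellaria library lay much nearer that floor. CDRT4 (-4.13 ± 1.05) varied widely within Scutellaria (5.15, 11.4 and 6.92 CPM). The zinc finger gene ZNF681 (-3.31 ± 0.17), the noncoding SWINGN (-3.67 ± 0.22) and CENATAC-DT (-3.29 ± 0.30), and SULT1A3 (-3.17 ± 0.46), which has a near-identical copy, were low throughout. The library kit keeps strand, but the sources used here do not say whether counting used it, and antisense and divergent transcripts cannot be told from their partners with certainty.

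**Figure D4:**
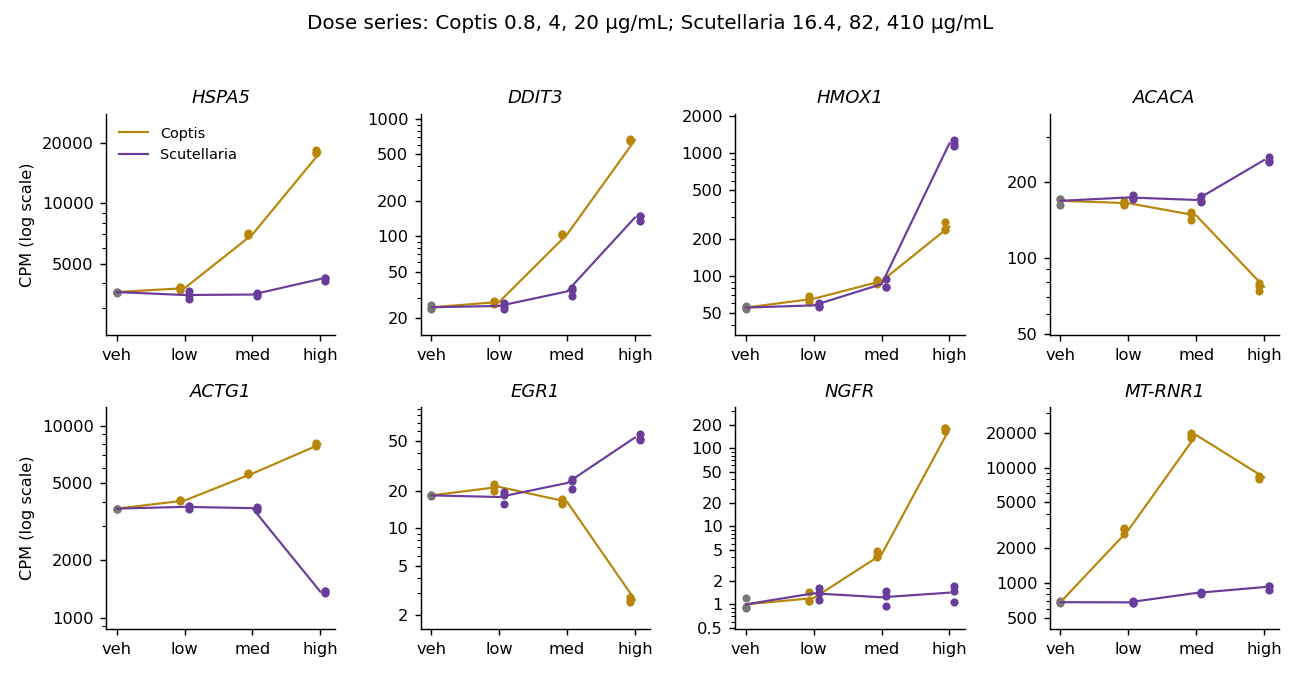
Scaled CPM (log axis) of 8 genes in vehicle libraries (grey) and over the doses of Coptis (0.8, 4 and 20 µg/mL) and Scutellaria (16.4, 82 and 410 µg/mL); points are libraries and lines join group means. ACTG1 and ACACA part in opposite directions from vehicle at the high doses, and MT-RNR1 peaks at the medium dose of Coptis at 19156 CPM.

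Because the doses are not matched by mass, the course within each extract was set beside the end point. HSPA5 averaged 3767, 7005 and 18078 CPM over low, medium and high Coptis, and 3482, 3500.1 and 4186 CPM over the doses of Scutellaria. HMOX1 averaged 65.2, 90.8 and 253 CPM over Coptis and 57.6, 85.8 and 1210.3 CPM over Scutellaria, close at the medium doses and apart at the high ones. NGFR was at 1.203, 4.36 and 177 CPM over Coptis and between 1.23 and 1.41 CPM at every dose of Scutellaria. SLC7A11 did not follow dose in Coptis, with 147, 333 and 211 CPM, and did in Scutellaria, with 107, 179.97 and 697 CPM.

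Set against their own low doses, the extracts share no library. High against low dose called 13315 genes with Coptis (75.8%) and 10201 with Scutellaria (58.1%), and 8563 were in both lists, 64.3% of the Coptis list and 83.9% of the Scutellaria list. Of these, 6289 changed in the same direction (3155 higher, 3134 lower) and 2274 in opposite directions: 1184 rose with Coptis and fell with Scutellaria, and 1090 the reverse. Across all 17569 genes the 2 changes had a Pearson correlation of 0.43, given as a description, since genes are not independent.

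**Figure D5:**
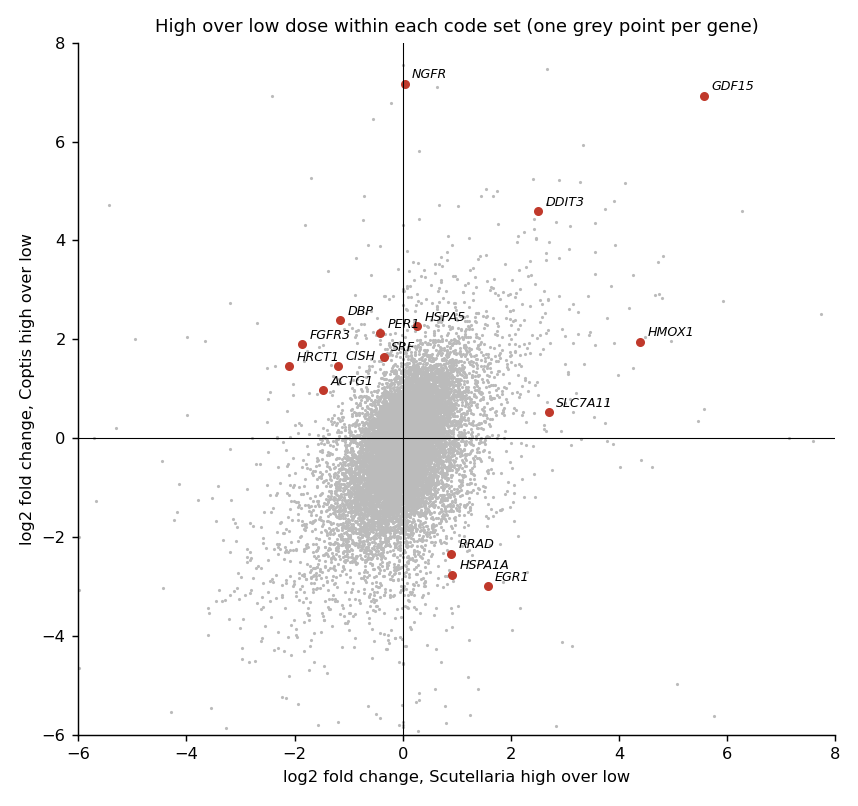
Log2 fold change of high over low dose for each tested gene, Scutellaria on the x axis and Coptis on the y axis, with 16 genes named; the 2 axes share no library and 15 genes lie outside the range drawn. DDIT3 and GDF15 lie to the upper right, NGFR and HSPA5 near the vertical axis, and EGR1 and HSPA1A to the lower right.

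The 5 largest opposed changes of each sign, taken where the libraries did not overlap and the mean level reached 1 on the log2 CPM scale, were as follows. FGFR3 rose by 1.90 on the log2 scale with Coptis while it fell to 1.13 CPM with high-dose Scutellaria, against 4.08 CPM at low dose (difference of the changes 3.76 ± 0.19). HRCT1, DBP, CISH, a cytokine signalling inhibitor, and PER1, a repressor of the circadian clock, had differences of 3.55 ± 0.19, 3.54 ± 0.19, 2.67 ± 0.25 and 2.54 ± 0.07. PER1 had 133, 144 and 136 CPM with high-dose Coptis, against 22.9, 23.8 and 22.9 CPM with high-dose Scutellaria and 30.1, 28.7 and 29.999 CPM in vehicle cells. In the opposite sense stood EGR1 (-4.57 ± 0.16), HSPA1A (-3.68 ± 0.10), HSPA1B (-3.65 ± 0.10), TMEM154 (-3.25 ± 0.10) and RRAD (-3.23 ± 0.14).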

How the data were processed

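RNA of SW1783 cells was sequenced as directional messenger RNA libraries, per the labels' protocols. The authors deposited 1 table of RSEM expected counts (estimated counts) for 60675 genes in 60 libraries; per the submitters' processing notes, the tools were RSEM 1.3.3, STAR 2.7.3a, Trim Galore 0.6.5 and FastQC 0.11.9 and the builds hg38 and GRCh38. The sources used here do not give the strand setting of the counting. Estimated counts that are not whole were rounded, which changed no library total by more than 0.00022%. Genes kept by edgeR's filter on low counts (17569 of 37383 with any count) were fitted with edgeR 4.0.16 in R 4.3.3 by its quasi-likelihood test over all 60 libraries and 20 groups, with TMM scaling, 40 residual degrees of freedom and Benjamini-Hochberg adjustment; a gene was called at an adjusted p under 0.05. Library totals in all 60 libraries lay between 20.2 and 32.8 in units of 1e6 counts. Where a gene had no count, 3 counts per library were taken as the floor, which covers counting error only.

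The gene lists and the pair of extracts were chosen with earlier results of these data known, so the lists are described by counts and medians. Named genes are the 12 largest rises and 12 largest falls among called genes with a symbol, libraries that do not overlap and a mean level of 1 or more on the log2 CPM scale, up to 4 members of each list per direction with the smallest p, a fixed list of regulators, and 5 opposed changes per direction; other genes are said to have been chosen after their values were seen. Some genes and 1 list that these rules name are not reported here. Promoters came from RefSeq (GRCh38.p14), and motifs were searched from 250 bases before to 50 after the start. Searches not described above gave the following shares. The antioxidant response element was in 5 of 22 NRF2 list promoters (22.7%), against 13.6% of all promoters. The E-box was in 3 of 20 glycolysis list promoters (15.0%), against 7.43% of all. The sterol element was in 1 of 18 cholesterol list promoters (5.6%), that of SREBF2, against 0.0476% of all. On simulated counts for the direct comparison, 27, 48, 50 and 50 of 50 genes changed by 1.2, 1.5, 2 and 4-fold were called in the right direction, with 4 false calls among 179, over 16963 genes. Only these genes changed there, up or down at random, and they were drawn from genes with enough expected counts. All other simulated means followed 1 common profile. The large share of changed genes and the scale shift of the data were not simulated, so error in that setting was not measured. The alternatives were other scalings, filters, thresholds and model samples, a trend in exon length, DESeq2 1.42.0, a replicate block, and leaving out each library in turn. Replicate pairs of the high-dose and vehicle groups differed by more than sampling noise, and none were identical. Other treatments entered only to estimate the spread and for the low-dose comparison across code sets.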

Additional observations from a re-analysis of the deposited data

Results flagged for a closer look

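The change from low to high dose differed between the extracts in opposite directions for 10 genes, tested by the difference of the 2 changes in edgeR's quasi-likelihood test (log2, Coptis minus Scutellaria). It was positive for FGFR3 (3.76), HRCT1 (3.55), DBP (3.54), CISH (2.67) and PER1 (2.54). It was negative for EGR1 (-4.57), HSPA1A (-3.68), HSPA1B (-3.65), TMEM154 (-3.25) and RRAD (-3.23). These 10 were taken as the largest of 2274 such genes. In data outside the direct comparison, mitochondrially encoded genes held up to 11.53% of the counts in a library of the medium Coptis dose, against 6.80% at most at the high Coptis dose, 6.05% at most with high-dose Scutellaria and 5.34% at most in vehicle cells.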

How the results depend on the processing

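The direct comparison gave between 12032 and 13322 called genes over the alternative scalings, DESeq2 (12324), no filter (13063), only the groups compared, and the exon length trend taken out (12863), and 12297 to 12525 without 1 library; 11585 passed an adjusted p under 0.01. With a floor of 10 CPM, which tests 9896 genes, 8457 were called (4079 higher, 4378 lower), 8563 for Coptis against vehicle and 8581 for high against low Coptis. On library totals 3359 were called higher and 9963 lower. At high dose the replicate numbers did not pair Coptis with Scutellaria libraries, and the replicate block gave 12867 calls. Correlations of deviations were -0.01, 0 and -0.07, with 0 of the 6 libraries closest to their own number. At low dose 5 of 6 were closest to their own number, with correlations of 0.04, 0.01 and 0.02. The replicate block gave 514 calls for that comparison, against 477 without it. For high against low Scutellaria 3 of 6 were closest to their own number. Low-dose Coptis against Scutellaria gave 282 calls at an adjusted p under 0.01. Low-dose Zizyphi Fructus against Pinelliae Tuber gave 99 without a filter, 8 with only the groups compared, 6 at an adjusted p under 0.01, and 6 to 13 without 1 library. On library totals the medians reversed for the ATF4 list (-0.011), mitochondrial chaperones (-0.026), complex I (-0.0031), mitochondrial ribosomal proteins (-0.063), ribosome biogenesis (-0.041), the liver X receptor list (-0.10), the BCL2 family (-0.11), the proteasome (-0.14) and FOXO targets (-0.19); at 10 CPM or more those of the liver X receptor list (-0.39) and the BCL2 family (-0.11) did too. Single genes that reversed on library totals were ACLY (-0.15), ATF4 (-0.14), CD44 (-0.079), DELE1 (-0.11), EIF2AK4 (-0.10), FTH1 (-0.090), FTL (-0.13), MT-CO3 (-0.13) and NSDHL (-0.18). KEAP1 lay between -0.066 and 0.0078 without 1 library. FTH1, MT-CO3 and NSDHL lost their call at 10 CPM or more. The cause was not tested, beyond the shift of -0.33 that library totals give all genes and the fewer genes tested at 10 CPM.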

Other observations

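Some gene groups belong to none of the pathways above. Of 13 feedback genes of TGF-beta and BMP signalling, 11 were higher and 2 lower in Coptis than in Scutellaria (median 0.58). Both medians lay below vehicle. With Coptis 5 were higher and 7 lower than vehicle (median -0.51), and with Scutellaria 2 and 10 (median -0.85). ID2, an inhibitor of differentiation factors that BMP signals raise, averaged 13.6 CPM with Coptis, 2.97 CPM with Scutellaria and 28.97 CPM in vehicle cells, below vehicle under both extracts. GREM1, which binds BMPs outside the cell, averaged 101 CPM with Coptis, 31.2 CPM with Scutellaria and 15.3 CPM in vehicle cells, above vehicle under both. The BMP4 message itself was lower in Coptis (-1.27 ± 0.18).

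In the BCL2 family, 8 of 13 were higher and 3 lower in Coptis (median 0.23, -0.11 on library totals), and members of both roles were among those higher: the pro-apoptotic HRK (2.02 ± 0.23) and BMF (1.29 ± 0.13), and the anti-apoptotic BCL2 (1.21 ± 0.06). BCL2L1, also anti-apoptotic, was lower (-0.33 ± 0.03). Proteasome subunits had 26 of 37 higher and 5 lower (median 0.20, -0.14 on library totals), with differences between -0.66 and 0.64. Mitochondrial chaperones and proteases had 9 of 13 higher and 3 lower (median 0.31, -0.03 on library totals); HSPA9, which draws proteins into the mitochondrion, averaged 1044 CPM with Coptis, 763 CPM with Scutellaria and 395 CPM in vehicle cells, and the protease SPG7 was lower in Coptis (-0.78 ± 0.04).

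Tubulins gave 5 higher and 5 lower of 13 (median -0.01), close to the 35.5% and 37.6% of all genes. TUBB was higher (0.72 ± 0.02) and TUBA1A lower in Coptis (-1.25 ± 0.03). The counts of the next lists are to be read beside the same shares. Among 8 genes of sterol efflux under liver X receptors, 4 were higher and 3 lower (median 0.24, -0.10 on library totals, 0.16 without Scutellaria replicate 3); beside ABCA1, LPCAT3, which remodels phospholipids, was lower in Coptis (-1.72 ± 0.07) and ABCG1 higher (1.42 ± 0.24). Of 7 MondoA targets and alpha-arrestins, 3 were higher and 3 lower, and TXNIP was the 1 member at least 2-fold lower. Of 17 astrocytoma and glial markers 11 were tested, with 5 higher and 6 lower in Coptis. VIM was higher, at 6484 to 6875 CPM of the unscaled total with Coptis and 4102 to 4256 CPM with Scutellaria. In vehicle cells VIM stood at 4076 to 4486 CPM on that scale. CHI3L1 was also higher, at 1573 to 1637, 1119 to 1205 and 1273 to 1373 CPM in the same order and scale. Among those lower, the intermediate filament NES averaged 1.79 CPM with Coptis, 8.12 CPM with Scutellaria and 9.996 CPM in vehicle cells. The glutamate carrier SLC1A3 averaged 4.101 CPM with Coptis, 14.97 CPM with Scutellaria and 33.4 CPM in vehicle cells.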
